A study of Bubalus bubalis with 36 samples.

Results

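Small leucine-rich proteoglycans are secreted proteins of the extracellular matrix, and their expression was examined across 6 adipose depots of river buffaloes. The group was defined by 9 gene symbols (DCN, BGN, FMOD, LUM, EPYC, OGN, ASPN, PRELP and OMD), and 6 of the 9 had values, each as 1 of the 23032 gene models in the expression table. LUM, OGN and ASPN were not analysed here. All of the 6 genes with values (DCN, BGN, FMOD, EPYC, PRELP and OMD) were above the filter on low expression that left 17688 gene models for testing.

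The proteins of this family share a core of leucine-rich repeats that binds to collagen, and most of them carry chondroitin, dermatan or keratan sulfate chains. On the surface of collagen fibrils they limit how the fibrils join and thicken, and several of them also hold transforming growth factor beta in the matrix. In fat, decorin is known mainly as a product of fibroblast-like stromal cells and not of mature adipocytes.

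RNA was sequenced from 36 samples, taken from 6 depots of each of 6 river buffaloes. The 3 subcutaneous adipose tissue (SAT) depots were BSAT from the back, SSAT over the sternum and IAT from the groin, and the 3 visceral adipose tissue (VAT) depots were OAT from the omentum, PCAT around the heart and PRAT around the kidney. No treatment is named for any animal, and all were slaughtered at 19 to 21 months of age. The study reports that they were raised under a standard feeding procedure. The labels give animals 1 to 3 as Murrah males and animals 4 to 6 as Nili-Ravi females, and by these labels sex and breed cannot be told apart, but the study's animal table names Murrah for every animal. Expression was given as FPKM, a fragment count scaled by transcript length and by the mapped reads of the library. The scaling by length allows genes to be compared within a library. Levels compared between libraries also depend on the other transcripts in each. The summed level of 13 collagens of fibrils and their surface, for example, ran from 4223 to 183483 FPKM per library.

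Total FPKM ranged from 796645 to 911384 per library, and read counts per gene were not known, so the counting error behind a single value could not be given. Markers of adipocytes were present in every depot, but their summed level ranged from 414 to 16286 FPKM. The mean log2(FPKM + 0.1) of these markers was 4.84 in OAT 1, 4.97 in PRAT 4, 5.82 in PCAT 4 and 5.97 in OAT 4. In every other library it was at least 7.57, so these visceral libraries were poor in adipocyte transcripts. The 6 libraries richest in lymphoid markers were PRAT 2, PRAT 4, OAT 1, OAT 4, IAT 4 and PCAT 2. Skeletal muscle markers summed to 2080 FPKM in BSAT 1, and to 878 FPKM in the highest PRAT library, where the PRAT median was 98.7 FPKM. In whole tissue, fewer cells of a type and less RNA per cell cannot be told apart.

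DCN, BGN, FMOD and EPYC were abundant transcripts in buffalo fat. DCN encodes decorin, the dermatan sulfate proteoglycan that coats collagen fibrils, and its mean over all 36 libraries was 125 FPKM, above 94.4% of the gene models. BGN encodes biglycan, its close relative on the X chromosome, with a mean of 195 FPKM. FMOD encodes fibromodulin, a keratan sulfate proteoglycan that binds type I collagen, with a mean of 177 FPKM. The gene model named EPYC had the highest mean of the members, 228 FPKM, above 97.2% of the gene models.

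Epiphycan, the product of EPYC, is known as a dermatan sulfate proteoglycan of growing cartilage. Of the 8 cartilage markers with values, COL2A1, MATN3 and HAPLN1 were below 1 FPKM in all 36 libraries. The others were not, and the 8 together summed to between 73.3 and 290 FPKM per library. In the RefSeq annotation of a different buffalo assembly, the order of genes on chromosome 4 is DCN, LUM, KERA and EPYC. In the expression table the gene models of EPYC and DCN carry the consecutive numbers 385 and 386, with none for LUM or KERA between them. Whether the EPYC gene model holds reads of these neighbours was not tested, and it is called EPYC here as in the table.

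OMD, with a mean of 31.6 FPKM, encodes osteomodulin, a keratan sulfate proteoglycan first isolated from bone. The same caution applies to it, since OGN, OMD, ASPN and ECM2 follow each other on chromosome 3 in RefSeq, while the gene models of OMD and ECM2 in the table carry the consecutive numbers 1807 and 1808. PRELP encodes a relative that links collagen to basement membrane heparan sulfate, and it was the least expressed of the 6, with a mean of 3.98 FPKM. PRELP lies beside FMOD on chromosome 5, as gene models 675 and 674, yet FMOD was expressed at a far higher level.

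The sternum depot had the highest mean of all 6 members and the inguinal depot the next highest. The perirenal depot had the lowest mean of DCN, FMOD, EPYC, PRELP and OMD, while BGN was lowest in the back depot. The spread between animals was wide in SSAT, and the order of depots was not the same in every animal. SSAT was the highest depot in 5 of 6 animals for BGN and FMOD, in 4 for EPYC and in 3 for DCN, PRELP and OMD.

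**Figure D1:**
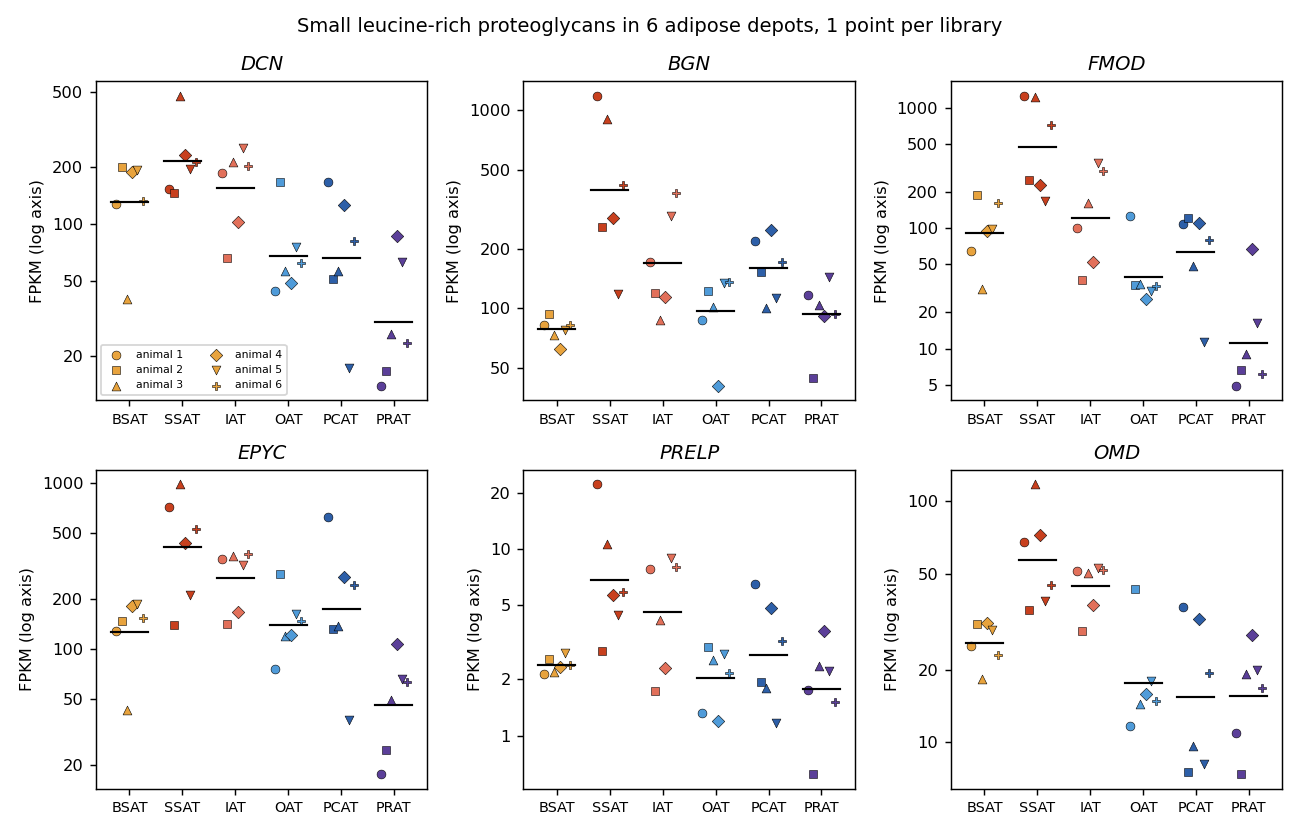
Expression of the 6 small leucine-rich proteoglycans with values, in FPKM on a log axis, in the 6 libraries of each depot. Each symbol is an animal and each bar the geometric mean of the depot; the SSAT bar is the highest in all 6 panels, and for FMOD the SSAT libraries lie between 170 and 1263 FPKM and the PRAT libraries between 4.93 and 67.2 FPKM.

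FMOD was the member that varied most between depots. In SSAT its lowest, median and highest values were 170, 484 and 1263 FPKM, with animals 1 and 3 the highest (1263 and 1226 FPKM) and animal 5 the lowest. In PRAT the corresponding values were 4.93, 7.78 and 67.2 FPKM, and the libraries other than that of animal 4 reached no more than 16.3 FPKM. No SSAT library overlapped with any OAT, PCAT or PRAT library for FMOD. IAT (166 ± 130 FPKM, SD, n = 6) and BSAT (107 ± 59.5) lay between these, and both overlapped with SSAT. OAT was low, at 47.3 ± 39.1 FPKM, where OAT 1 had 127 FPKM and the other 5 libraries were between 25.6 and 34.6 FPKM. PCAT had 79.9 ± 42.8 FPKM.

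DCN followed a flatter course. Its lowest, median and highest values were 146, 205 and 480 FPKM in SSAT and 65.8, 195 and 252 FPKM in IAT. BSAT had 147 ± 61.1 FPKM, with BSAT 3 far below the rest at 40.1 FPKM. In PRAT the values were 13.9, 24.8 and 86.0 FPKM, so that each SSAT library was above each PRAT library. OAT and PCAT were close in mean, with 75.6 ± 46.0 and 83.0 ± 54.5 FPKM, and each had 1 library at about the level of SSAT (OAT 2 and PCAT 1).

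BGN was also highest in SSAT, but it was lowest in BSAT and not in PRAT. Its SSAT values ranged from 118 over a median of 352 to 1186 FPKM, again with animals 1 and 3 the highest. In BSAT it was the most even of these abundant members, at 62.1, 80.3 and 94.0 FPKM, and every BSAT library was below every SSAT library. The remaining means were 99.1 ± 33.2 FPKM in PRAT, 104 ± 36.2 in OAT, 168 ± 58.2 in PCAT and 194 ± 117 in IAT. The back depot, although subcutaneous, was thus at the level of the lower visceral depots for biglycan.

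EPYC ranged from 139 over 479 to 979 FPKM in SSAT and from 17.5 over 55.8 to 106 FPKM in PRAT. The libraries of these depots did not overlap. IAT had 285 ± 103 FPKM and PCAT 240 ± 206 FPKM, where PCAT 1 reached 624 FPKM and PCAT 5 was at 37.0 FPKM. OAT (151 ± 71.1 FPKM) and BSAT (139 ± 52.2 FPKM) were close to each other.

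OMD had 35.4, 56.1 and 117 FPKM as the lowest, median and highest values in SSAT, and 29.0, 50.7 and 52.6 FPKM in IAT. BSAT was lower, at 26.2 ± 5.11 FPKM, and below every SSAT library. The 3 visceral depots were near each other, at 19.6 ± 11.7 FPKM in OAT, 18.9 ± 12.8 in PCAT and 17.0 ± 7.23 in PRAT. PRELP reached 22.2 FPKM in SSAT 1, with a median of 5.75 FPKM in that depot, and its depot means elsewhere were 5.49 ± 3.15 FPKM in IAT, 2.39 ± 0.238 in BSAT, 3.23 ± 2.05 in PCAT, 2.16 ± 0.745 in OAT and 2.02 ± 1.01 in PRAT. PRELP values of SSAT and PRAT overlapped, since SSAT 2 (2.82 FPKM) was below PRAT 4 (3.64 FPKM).

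To ask whether the family differed between subcutaneous and visceral fat, the 18 SAT libraries were compared with the 18 VAT libraries by limma on log2(FPKM + 0.1), with p-values adjusted over all gene models by the Benjamini and Hochberg method. DCN, FMOD, EPYC, PRELP and OMD were higher in SATs, and BGN did not pass the threshold of an adjusted p of 0.05. Of all gene models tested, 7.9% were called higher in SATs and 22.1% lower. Of the gene models called, 26.3% were thus higher in SATs, and 55.0% were after quantile normalization, under which the same number of members was called. The median log2 fold change was 1.26 over the 6 members and −0.13 over all gene models.

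FMOD differed most between SATs and VATs. Its lowest, median and highest values were 31.3, 166 and 1263 FPKM in SATs against 4.93, 33.3 and 127 FPKM in VATs, a log2 fold change of 2.51 ± 0.50 (SE; limma adjusted p = 0.00039). DCN had 40.1, 191 and 480 FPKM in SATs against 13.9, 56.5 and 167 FPKM in VATs, and rose by a log2 fold change of 1.67 ± 0.30 (limma adjusted p = 0.000149). OMD had 18.3, 37.8 and 117 FPKM against 7.36, 16.3 and 43.1 FPKM, with a log2 fold change of 1.31 ± 0.23 (limma adjusted p = 0.000101). For each of these genes the ranges overlapped, but the log2 mean of the SAT depots was above that of the VAT depots in 6 of 6 animals.

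EPYC and PRELP were nearer to the threshold. The log2 fold change of EPYC was 1.21 ± 0.38 (limma adjusted p = 0.0168), with 308 ± 237 FPKM in SATs and 149 ± 143 in VATs. That of PRELP was 0.94 ± 0.29 (limma adjusted p = 0.0135), with 5.50 ± 4.99 FPKM in SATs and 2.47 ± 1.42 in VATs. On the log2 scale the SAT mean of both was above the VAT mean in 6 of 6 animals, while in FPKM this held for EPYC in all animals but animal 2. Neither kept its call without animal 5 (limma adjusted p = 0.0614 for EPYC and 0.0507 for PRELP), without the 6 lymphoid-rich libraries (0.0606 and 0.0532), without the SSAT libraries (0.165 and 0.142) or without the PRAT libraries (0.247 and 0.0804).

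BGN had 267 ± 308 FPKM in SATs and 123 ± 52.3 in VATs. Its log2 fold change was 0.62 ± 0.33 (limma adjusted p = 0.144), and its log2 mean was higher in SATs in 6 of 6 animals. Without the SSAT libraries its log2 fold change fell to 0.03, whereas those of DCN, FMOD and OMD were 1.44, 1.79 and 1.05 and kept their calls. A contrast of depot means in the fit with 6 depots gave BGN the same fold change with a limma adjusted p of 0.0457.

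**Figure D2:**
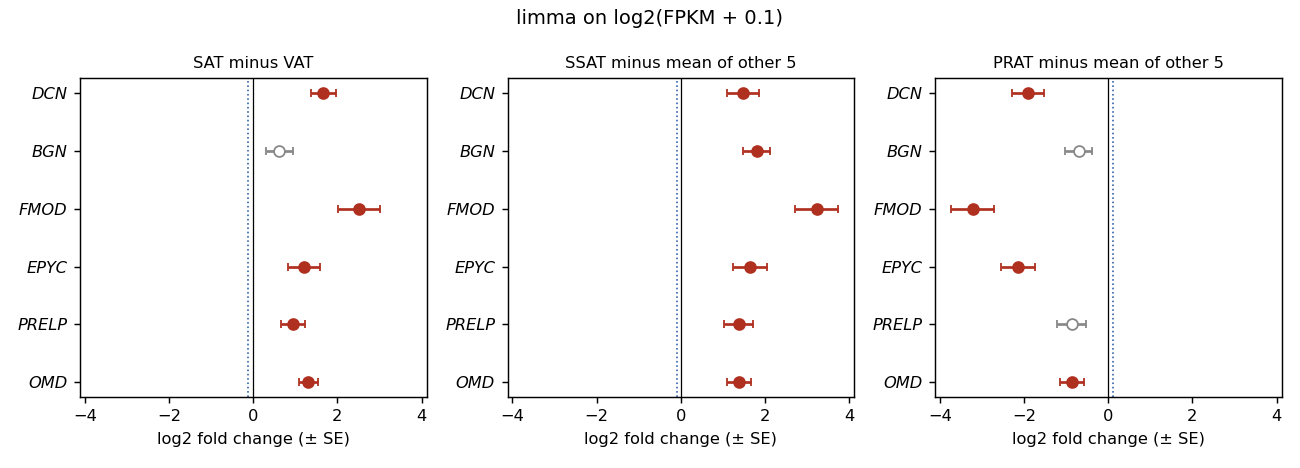
Log2 fold changes of the 6 members, with standard errors from limma, for SATs minus VATs, for SSAT minus the mean of the other 5 depots and for PRAT minus the mean of the other 5. Filled red points had an adjusted p under 0.05, open grey points did not, and the dotted line is the median of all gene models (−0.13, −0.10 and 0.11); FMOD lies farthest from 0 in each panel.

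The sternum depot was then compared with the mean of the other 5 depots, which shares its libraries with the comparison above. All 6 members were higher in SSAT, where 3.9% of all gene models were called higher and 5.23% lower. Of those called, 42.7% were higher, and 70.4% after quantile normalization. The log2 fold changes were 3.23 ± 0.52 for FMOD (limma adjusted p = 0.000197), 1.80 ± 0.32 for BGN (0.000658), 1.65 ± 0.41 for EPYC (0.01), 1.49 ± 0.38 for DCN (0.0125), 1.39 ± 0.28 for OMD (0.00236) and 1.37 ± 0.35 for PRELP (0.0112). Their median was 1.57, beside −0.10 over all gene models. FMOD, BGN and OMD kept their calls without each animal in turn. DCN, EPYC and PRELP lost theirs without animal 3 (limma adjusted p = 0.116, 0.108 and 0.102) and without animal 6 (0.0767, 0.0693 and 0.0570). PRELP also lost its call without animal 1 (0.0597). Over all gene models the calls in SSAT fell from 1615 to 391 without animal 3 and to 381 without animal 6. The log2 fold changes of DCN, EPYC and PRELP were smaller without animal 3, at 1.184, 1.334 and 1.240. Without animal 6 they were 1.503, 1.648 and 1.451, so the losses there came without a marked fall in the estimates.

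The perirenal depot was at the other end from the sternum depot for most members. FMOD fell by 3.22 ± 0.52 on the log2 scale against the mean of the other 5 depots (limma adjusted p = 0.000409), EPYC by 2.14 ± 0.41 (0.00138), DCN by 1.92 ± 0.38 (0.00184) and OMD by 0.85 ± 0.28 (0.0487). These were 4 of the 6 members, where 3.29% of all gene models were called lower in PRAT and 7.6% higher. The higher share of those calls was 69.8%, and 42.4% after quantile normalization. BGN (−0.70 ± 0.32, limma adjusted p = 0.156) and PRELP (−0.87 ± 0.35, 0.0991) did not pass. The call of OMD held without animal 4 but was lost without each of the other animals in turn, with limma adjusted p-values from 0.0626 to 0.149. In the runs that lost it, the calls over all gene models fell from 1927 to between 773 and 1438. The log2 fold change of OMD was smaller in size without animals 1 and 2 (−0.708 and −0.667). It was not smaller without animals 3, 5 and 6 (−0.918, −0.961 and −0.881). The low level of OMD was also not particular to PRAT. Its mean was 17.0 FPKM there, 18.9 FPKM in PCAT and 19.6 FPKM in OAT, and OMD was not called between visceral depots.

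No member was called in BSAT, IAT, OAT or PCAT against the mean of the other 5 depots, where 2.01%, 0.181%, 0.78% and 4.26% of all gene models were called in either direction. At an unadjusted p under 0.05 the limma fit gave 1 member in BSAT, 4 in IAT, 2 in OAT and 1 in PCAT. Of the 17688 gene models, 3046, 1470, 3410 and 2672 were under this limit in the same comparisons. The lowest adjusted p-values were 0.0813 for OMD in PCAT (log2 fold change of −0.86 ± 0.28) and 0.0877 for BGN in BSAT (−1.01 ± 0.32). OMD was called lower in PCAT without animal 1 (limma adjusted p = 0.0311) and in OAT without animal 2 (0.0361), and BGN was called lower in BSAT without the 6 lymphoid-rich libraries (0.0333).

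Among the 15 pairs of depots, 26 of the 90 tests of a member in a pair passed the threshold, and 17 of the 26 involved SSAT and 14 involved PRAT. This weight on SSAT and PRAT was not particular to the members. Over all gene models the most calls were also in such pairs, with 3694 between SSAT and PRAT, 2383 between SSAT and OAT and 2358 between BSAT and PRAT. Other pairs with these depots had few, such as 18 between SSAT and IAT and 21 between OAT and PRAT. Among pairs without either depot the most calls were 1004, between BSAT and PCAT. Each pair had 17688 gene models tested, and the share called is given for each pair below. SSAT was higher than PRAT for all 6 members, where 6.66% of all gene models were called higher in SSAT. FMOD differed most, with a log2 fold change of 5.37 ± 0.67 (limma adjusted p = 4.08e-06), followed by EPYC with 3.16, DCN with 2.84, BGN with 2.08 and PRELP and OMD with 1.87 each. SSAT was also higher than OAT for all 6 members (background 4.5%), with log2 fold changes from 1.55 for EPYC to 3.57 for FMOD. Against PCAT it was higher for DCN, BGN, FMOD and OMD (background 3.01%).

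The sternum and inguinal depots were the highest pair for each member. No member passed the threshold between them, where 0.102% of all gene models were called. In the limma fit 2 members had an unadjusted p under 0.05, beside 1206 of the 17688 gene models. The estimates were 1.95 ± 0.67 for FMOD (limma adjusted p = 0.385), 1.23 ± 0.41 for BGN (0.359) and 0.37 ± 0.37 for OMD (0.998). BGN was the only member called between BSAT and SSAT (log2 fold change of −2.34 ± 0.41, limma adjusted p = 0.00623), where 0.119% of all gene models were lower in BSAT.

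IAT was higher than PRAT for DCN, FMOD, EPYC and OMD (background 2.57%), and higher than PCAT for OMD alone (log2 fold change of 1.51 ± 0.37, limma adjusted p = 0.0163; background 0.933%). BSAT was higher than PRAT for DCN (limma adjusted p = 0.0051) and FMOD (3.01 ± 0.67, 0.0036), where 3.44% of all gene models were higher. Within the visceral depots, PCAT was higher than PRAT for FMOD (2.48 ± 0.67, limma adjusted p = 0.0338) and EPYC (1.92 ± 0.53, 0.0383), with a background of 1.57%. No member passed in the other 6 pairs, where the gene models called in either direction made up 0.00565% between BSAT and IAT, 5% between BSAT and OAT, 5.68% between BSAT and PCAT, 0.95% between IAT and OAT, 1.12% between OAT and PCAT and 0.119% between OAT and PRAT. At an unadjusted p under 0.05 limma gave 3, 0, 1, 4, 0 and 3 members in these pairs, beside 851, 4244, 3166, 3493, 2616 and 791 of the 17688 gene models. Leaving out animal 3 lowered the 26 calls to 17, and leaving out animal 6 lowered them to 13.

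Since FPKM is scaled by transcript length, the make-up of the 6 members with values could be set side by side between depots. LUM, OGN and ASPN are not in the sum, so the shares are not those of the whole family. Whether the gene models of EPYC and OMD hold reads of their neighbours was not tested. Their levels and shares are those of the gene models so named. The sum of the 6 members was 1978 ± 1298 FPKM in SSAT, 867 ± 385 in IAT, 593 ± 347 in PCAT, 500 ± 162 in BSAT, 400 ± 137 in OAT and 229 ± 102 in PRAT. In SSAT, FMOD had a mean share of 29.8% and was the largest fraction in the libraries of animals 1, 3 and 6, where BGN was the largest in SSAT 2 and EPYC in SSAT 4 and SSAT 5. In PRAT, FMOD took 6.62% and BGN 46.8%. The share of BGN was lowest in BSAT, where DCN had its highest share, 28.2%. The share of EPYC ran from 23.0% in PRAT to 37.5% in OAT, and PRELP stayed below 1% of the sum in the mean of every depot.

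**Figure D3:**
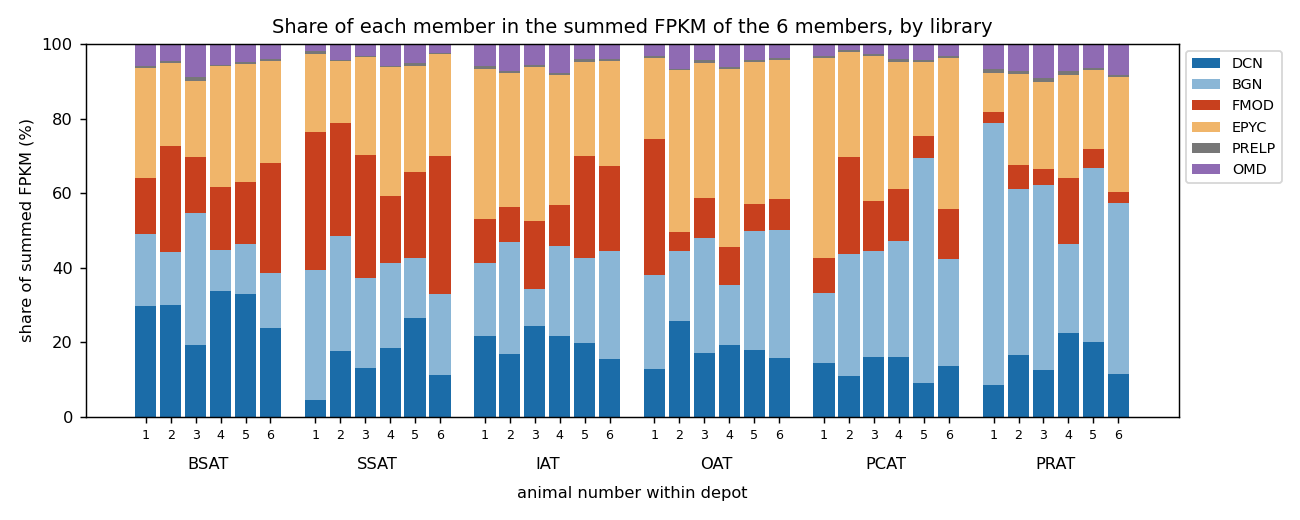
Share of each member in the summed FPKM of the 6 members, in percent, 1 bar per library and grouped by depot (animal number under each bar). BGN (light blue) takes between 23.9% and 70.4% in the PRAT libraries, and FMOD (red) between 18.1% and 37.2% in the SSAT libraries. LUM, OGN and ASPN are not in the sum, and EPYC and OMD are the gene models so named.

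Ratios within a library were compared over the 6 animals by a two-sided exact permutation test that flips the signs of the animal differences. With 6 animals the smallest possible p is 0.03125, and 8 such tests were run. The log2 ratio of BGN to DCN was lower in SATs than in VATs by a mean of −1.05 (SD over animals 0.59, lower in 6 of 6 animals; exact permutation p = 0.03125, adjusted 0.0625). The log2 ratio of FMOD to DCN was higher in SSAT than in the mean of the other 5 depots by 1.74 (SD 1.08, higher in 6 of 6 animals; exact permutation p = 0.03125, adjusted 0.0625). This ratio was chosen after its values were seen. Neither passed after adjustment, but both were already at the smallest possible p, so beside the other tests neither could have passed. Their failure to pass is therefore no sign that the ratios did not differ. The ratio of BGN to DCN in SSAT differed by 0.31 (SD 1.17, exact permutation p = 0.531, adjusted 0.607). Between SATs and VATs the ratio of FMOD to DCN differed by 0.84 (SD 0.65, higher in 5 of 6 animals, exact permutation p = 0.0625, adjusted 0.1).

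The members were also set against COL1A1, which encodes a chain of type I collagen, the main component of the fibrils that they bind. COL1A1 had 46602 ± 26624 FPKM in BSAT, 42902 ± 31451 in IAT, 31643 ± 16173 in SSAT and 3087 ± 2910 in PRAT, and the spread of the 3 SAT depots overlapped. The log2 ratio of DCN to COL1A1 was lower in SATs than in VATs by a mean of −1.11 (SD 0.38, lower in 6 of 6 animals; exact permutation p = 0.03125, adjusted 0.0625), and differed by 0.0032 in SSAT (exact permutation p = 1). The log2 ratio of FMOD to COL1A1 was higher in SSAT than in the mean of the other 5 by 1.74 (SD 1.27, higher in 6 of 6 animals; exact permutation p = 0.03125, adjusted 0.0625). It averaged −5.95 in SSAT and −8.61 in BSAT. Between SATs and VATs the FMOD ratio differed by −0.27 (exact permutation p = 0.281, adjusted 0.375). The COL1A1 ratios with an exact permutation p of 0.03125 were also at the smallest possible p. Beside the other tests they could not have passed, so their failure to pass is no sign of no difference.

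**Figure D4:**
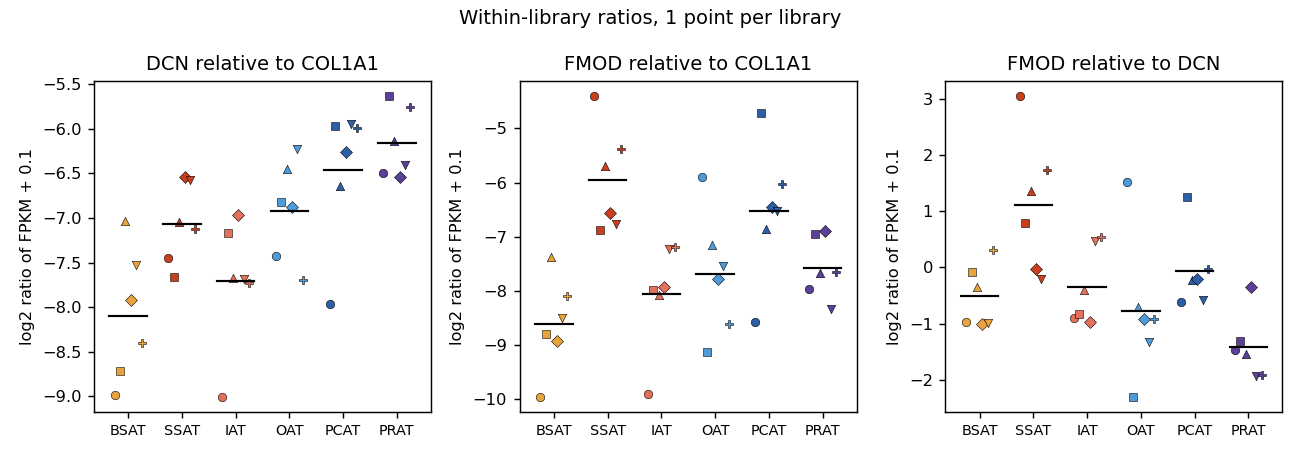
Log2 ratios within each library of DCN to COL1A1, FMOD to COL1A1 and FMOD to DCN, with 1 point per library, the depot on the horizontal axis and the depot mean as a bar. The mean ratio of DCN to COL1A1 goes from −8.10 in BSAT to −6.16 in PRAT, whereas the ratio of FMOD to DCN is highest in SSAT, at 1.12.

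The members rose and fell together across the libraries to differing degrees. Over the 36 libraries, which share animals and depots, the Pearson correlation on the log2 scale was 0.890 between EPYC and DCN, 0.871 between OMD and DCN and 0.852 between FMOD and DCN. After the depot means were removed, these were 0.882, 0.834 and 0.680. BGN was closest to PRELP (0.841, and 0.775 after removal of depot means) and least like DCN (0.516 and 0.383), although decorin and biglycan belong to the same class of the family.

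The gene model most like the mean of the members over the 36 libraries was that of ITGA11, the collagen-binding integrin chain of fibroblasts (r = 0.939), followed by SSC5D (0.913), COL16A1 (0.908), TGFBI (0.906), FBLN1 (0.898), EPHB2 (0.895), LTBP3 (0.893), KAZALD1 (0.892), a gene model without a symbol (0.889) and MMP16 (0.889). For the single members, the closest pairs of gene models were MRC2 (0.943) and COL1A2 (0.939) for DCN, ZFHX3 (0.894) and PKD2 (0.820) for BGN, and SLC41A2 (0.896) and TGFBI (0.895) for FMOD. They were COL14A1 (0.891) and TGFBI (0.885) for EPYC, ITGA11 (0.889) and HSPB6 (0.878) for PRELP, and PI16 (0.889) and PLXDC1 (0.874) for OMD. PI16 marks a progenitor fibroblast, and MRC2 is a receptor for the uptake of collagen.

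Of 9 further genes of the family or close to it, 4 were tested. TSKU, which encodes tsukushi, a secreted inhibitor of signals in development, was higher in SATs (log2 fold change of 0.60 ± 0.21, limma adjusted p = 0.0270). ECM2, the neighbour of OMD, did not pass there (0.45 ± 0.23, 0.131) but was higher in SSAT (0.83 ± 0.23, limma adjusted p = 0.0235) and lower in PRAT (−0.77 ± 0.23, 0.0290). PODN, which encodes podocan, had 0.57 ± 0.23 (limma adjusted p = 0.0558) between SATs and VATs and was lower in PRAT (−1.02 ± 0.28, 0.0180). PODNL1 had −0.54 ± 0.26 (limma adjusted p = 0.113). OPTC and NYX, known from the eye, were under the filter, at means no higher than 0.0963 and 0.197 FPKM in any depot. KERA, CHAD and CHADL were not analysed here.

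The enzymes that build the sulfated chains of these proteins were examined beside the shares of all gene models given above for each comparison (7.9% higher and 22.1% lower in SATs, 3.9% higher in SSAT and 3.29% lower in PRAT). Of 20 enzymes of chondroitin and dermatan sulfate tested, 3 were higher and 1 was lower in SATs (median log2 fold change of 0.08), 1 was higher in SSAT and 2 were lower in PRAT. DSE, the epimerase that turns chondroitin into dermatan sulfate, changed most, with a log2 fold change of 1.10 ± 0.16 in SATs (limma adjusted p = 5.76e-06). It was higher in SSAT (1.03 ± 0.17, limma adjusted p = 0.000346) and lower in PRAT (−1.24 ± 0.17, 8.34e-05) as well. CHST3 (0.40) and XYLT1 (0.35) were the other enzymes higher in SATs, and B3GAT3 (−0.21) was lower. Of 13 genes of keratan sulfate and tyrosine sulfation, 2 were higher in SATs (TPST1, a tyrosine sulfotransferase, by 0.94, and CHST6 by 0.26) and 2 lower (B3GNT7 by −0.97 and SLC26A2, a sulfate transporter, by −0.36). CHST6 was below 1 FPKM in all libraries, and B3GNT7 in every BSAT, SSAT and PCAT library, so these calls rest on low values. In SSAT, 2 of the 13 were higher, and none was called in PRAT.

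Most of the collagens that the family binds were higher in SATs and lower in PRAT. Of 12 collagens of fibrils and their surface, 10 were higher and 1 was lower in SATs, with a median log2 fold change of 1.21, and in PRAT 9 were lower and 1 was higher. Over all gene models, 7.9% were called higher and 22.1% lower in SATs, and 7.6% higher and 3.29% lower in PRAT. In SSAT these shares were 3.9% higher and 5.23% lower. COL1A1 rose by 2.78 ± 0.43 (limma adjusted p = 1.97e-05), COL1A2 by 2.54 ± 0.40 (3.06e-05), COL3A1 by 1.80 ± 0.37 (0.000455) and COL6A3 by 1.70 ± 0.26 (2.02e-05) in SATs. In SSAT, 6 of the 12 were higher and 1 was lower, and COL3A1 passed (1.42 ± 0.43, limma adjusted p = 0.0361) where COL1A1 (1.49 ± 0.54, 0.0783) and COL1A2 (1.41 ± 0.51, 0.0772) did not. Of 16 receptors, growth factors and proteases that act with the family, 6 were higher and 1 was lower in SATs, 1 was lower in SSAT and 3 were lower in PRAT. Among those higher in SATs were LOX, which cross-links collagen (1.28), MMP2 (0.90), BMP1, a protease that trims collagen and proteoglycan precursors (0.83), and LRP1, an uptake receptor (0.80).

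Fibroblast and progenitor markers changed in the same depots as the members. Of the 10 markers, 9 were higher in SATs (median log2 fold change of 1.23), 8 were higher in SSAT and 7 were lower in PRAT. The matching shares of all gene models were 7.9%, 3.9% and 3.29%. CXCL14 rose by 2.53, PI16 by 2.37, MFAP5 by 1.73 and FBN1 by 1.49 in SATs. Their summed level, given as lowest, median and highest library, was 2015, 3457 and 4579 FPKM in SSAT against 417, 1427 and 4051 FPKM in the other depots, and 417, 962 and 1506 FPKM in PRAT. Over the 36 libraries the mean of the members correlated with the mean of these markers at r = 0.867, and with that of the collagens at 0.862. The part of what these markers show in the results of the members was not tested.

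**Figure D5:**
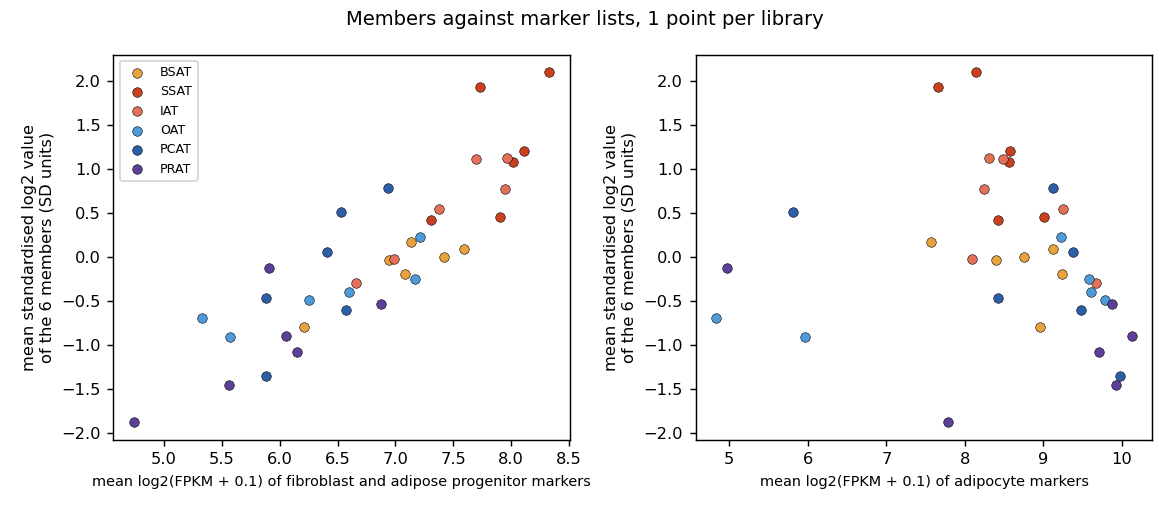
Mean standardised log2 value of the 6 members in each library (vertical axis, in SD units) against the mean log2(FPKM + 0.1) of 10 fibroblast and adipose progenitor markers (left) and of 10 adipocyte markers (right), coloured by depot. The points rise together on the left (r = 0.867 over 36 libraries) and show no such course on the right (r = −0.155).

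Adipocyte markers gave no call among 10 in SATs, in SSAT or in PRAT, and their summed level ran from 2169 over 3992 to 5597 FPKM in SSAT and from 420 over 10241 to 16286 FPKM in PRAT. Several members are also made in skeletal tissues, so markers of these were examined. Of 4 tendon and fascia markers none was called in SATs or PRAT and THBS4 was higher in SSAT (log2 fold change of 1.40), with summed levels of 6.91 to 64.4 FPKM in SSAT and 3.34 to 31.3 FPKM elsewhere. Of 7 cartilage markers tested, 3 were lower in SATs (MATN1 by −1.04, COL11A2 by −0.96 and COL2A1 by −0.68), 2 were lower in SSAT and 1 was higher in PRAT, and COL2A1, COL9A2, MATN1, MATN3 and HAPLN1 were below 1 FPKM in every SSAT library. Over all gene models, 22.1% were called lower in SATs, 5.23% lower in SSAT and 7.6% higher in PRAT. Of 3 bone markers, PHEX was higher in SATs (0.95), and none was called in SSAT or PRAT. Their summed level did not exceed 5.35 FPKM in SSAT.

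Among the other cell types, mesothelium had 4 of 8 markers lower in SATs (KRT8 by −3.36, WT1 by −2.65, KRT18 by −2.36 and MSLN by −2.06) and 2 lower in SSAT, and lymphoid cells had 3 of 8 lower in SATs (CD3D by −1.80, CD3E by −1.72 and CD2 by −1.60). These are small counts beside the 22.1% of all gene models called lower in SATs and the 5.23% called lower in SSAT. No lymphoid marker was called in SSAT or PRAT. None of 9 skeletal muscle or 6 endothelial markers was called in these comparisons, and MYH1 and MYH2 were listed at 0 in every SSAT library. Of 5 markers of smooth muscle and pericytes, none was called in SATs, 1 was higher in SSAT and 1 was lower in PRAT. The mean of the lymphoid markers correlated with that of the members at r = −0.415 over the 36 libraries.

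The sexes were compared with 1 mean per animal, 3 against 3. No member was called, nor was any of the 17688 gene models by limma, where 478 gene models and 1 member (DCN, log2 fold change of −0.29 ± 0.11 in males) had an unadjusted p under 0.05. The other members had log2 fold changes between −0.23 (EPYC) and 0.04 (BGN). The difference between SATs and VATs was also compared between the sexes, and again 0 members and 0 gene models were called by limma, with 608 gene models and 0 members at an unadjusted p under 0.05. The estimates ran from −0.22 ± 0.75 for FMOD to 0.35 ± 0.22 for BGN, so that differences between the sexes of the size of these errors could not be seen with 3 animals each.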

How the data were processed

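RNA of 36 adipose tissues was sequenced. Labels and the study's methods differ on the library kit (a TruSeq RNA kit against an rRNA-depleted library), which bears on which transcripts are seen. The deposited FPKM values were made by the authors with HISAT2 2.2.1 and StringTie 2.1.4 from reads aligned to an unpublished buffalo assembly of theirs, and the table held 0 columns of no sample. Read counts and gene lengths were not used here, and low values did not fall on whole steps.

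Members were read by symbol. The members and the gene lists, which were written from general knowledge, were chosen with earlier results of these data known, and FMOD is a gene that the study picked from these libraries. Named were all members, all other genes of the family, COL1A1, COL1A2 and COL3A1, up to 4 genes of each other list with the largest absolute change among those called in SATs against VATs, and the gene models most correlated with the members (10 for their mean and 2 for each). THBS4 and the values of enzymes outside SATs against VATs were added after they were seen.

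Values were taken as log2(FPKM + 0.1), so changes of low genes are understated, and those gene models whose FPKM averaged above 0.1 entered limma (version 3.58.1, R 4.3.3), with eBayes and a mean-variance trend and p-values adjusted by Benjamini and Hochberg over all gene models (threshold 0.05). SATs against VATs was a fit of 2 groups, the depots a fit of 6 groups, and sexes were compared on animal means. Libraries of 1 animal entered as independent. Same-numbered libraries come from the same animal by their titles: their deviations from depot means correlated at a mean of 0.217 (67 of 90 pairs over 0.1), against −0.0387 between animals. No 2 libraries were copies (highest correlation 0.988). Ratios were tested by exact sign flips in Python 3.11.15 with numpy 2.4.6. The fits were tested on simulated data. Alternatives were other pseudocounts (1 and 0.01), filters (none and an average FPKM of at least 10) and scalings (TPM and quantile normalization), the animal as a block, and subsets of libraries. The names of gene models were matched to RefSeq only for neighbours.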

Additional observations from a re-analysis of the deposited data

Results flagged for a closer look

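Of 36 groups of 6 libraries (6 members in 6 depots), 5 held a library that stood apart from the other 5 by Dixon's criterion on the log2 scale, and chance alone gives about 1 in 20 groups. BSAT 3 was low for DCN (40.1 FPKM, with the others between 127 and 200 FPKM) and for EPYC (42.7 FPKM, others between 127 and 185 FPKM). OAT 4 was low for BGN, with 40.7 FPKM where the others lay between 87.2 and 135 FPKM. OAT 1 was high for FMOD, with 127 FPKM against 25.6 to 34.6 FPKM, and OAT 2 was high for OMD, with 43.1 FPKM against 11.6 to 17.9 FPKM. OAT 1 and OAT 4 were among the 6 libraries richest in lymphoid markers and were poor in adipocyte markers. The part of either in their values was not tested.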

How the results depend on the processing

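No fold change of a member that was called changed its sign under any alternative run. Of 683 alternative fold changes, 653 kept their side of the threshold, 26 lost a call and 4 gained one. The 64 alternatives of the ratios say nothing of stability, since no ratio had passed and with an animal left out the smallest possible p is 0.0625. The 5 members called in SATs against VATs became 3 without the 6 lymphoid-rich libraries, without the SSAT libraries or without the PRAT libraries, the last pair chosen after seeing the data, and ranged from 3 to 5 when an animal was left out. The 6 called in SSAT became 3 in the 32 libraries of the study's network (DCN 1.30, EPYC 1.42 and PRELP 1.27 lost their calls) and ranged from 3 to 6 without an animal. The 32 libraries were those left without BSAT 1, BSAT 2, SSAT 3 and IAT 1. That run therefore shares the loss of SSAT 3 with the run without animal 3 and is not a separate check. The 0 called in BSAT became 1 without the lymphoid-rich libraries, and those in OAT and PCAT ranged from 0 to 1 without an animal. The 26 calls in pairs of depots ranged from 13 to 25 without an animal. OMD in PRAT also lost its call without a filter (limma adjusted p = 0.0629), without the 6 lymphoid-rich libraries (0.0642) and in the 32 libraries of the network (0.0911).

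With the animal as a replicate block, no member changed its call in SATs against VATs or in a depot against the others (FMOD in SATs: limma adjusted p = 0.000688, OMD in PRAT: 0.0459), and the 26 calls in pairs became 27. Over all gene models the block moved the calls from 356 to 771 in BSAT, from 1615 to 2560 in SSAT and from 138 to 356 in OAT. Quantile normalization moved the median of all gene models by 0.12 in SATs against VATs and by 0.11 in SSAT, and the share of calls that were higher from 26.3% to 55.0% and from 42.7% to 70.4%, while the members called stayed at 5 and 6. It moved the calls in PRAT from 1927 to 1120, and the higher share from 69.8% to 42.4%. Quantile normalization also moved the higher share in OAT from 42.8% to 26.8%, in BSAT from 26.1% to 40.4% and in PCAT from 76.4% to 62.3%. The filter of at least 10 FPKM left out PRELP and lowered the calls from 5306 to 2696 in SATs against VATs (2857 without SSAT and 3137 without PRAT). Over all alternatives the gene models called ranged from 35 to 892 in BSAT, 381 to 2746 in SSAT, 4 to 51 in IAT (32 as reported), 45 to 583 in OAT, 159 to 1079 in PCAT (754 as reported) and 773 to 2754 in PRAT, and from 0 to 2 between the sexes. The ratios of ASPN and OGN to DCN and of FMOD to LUM were not run, as these genes had no values, and summing gene models changed nothing because each member had 1. The precision of single values is limited by read depth, which was not known.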
